A study of Mus musculus with 7 samples.

Results

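Tmem176a and Tmem176b are neighbouring genes that encode related proteins with several membrane-spanning segments. Both were taken as the rows of that name in the deposited count table, 2 genes of 24015 in all. They were chosen with their levels in old and young cells and their correlation over libraries known, so those values are given here as a description. Whether either gene passed a threshold on this contrast is given beside the share of all genes that did, and supports nothing.

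The series holds bulk RNA sequencing of haematopoietic stem cells (HSCs) sorted from mouse bone marrow, and the question was how their transcription differs with age. The sort took lineage-negative Sca-1+ c-Kit+ cells that carried CD150 and lacked CD48. There were 3 libraries labelled old and 4 labelled young, all from the C57BL/6 strain, and the labels name no genetic change or treatment in either group. The ages, the number of mice behind a library and whether mice were pooled were not given in the sources used here, so the spread between libraries may be partly technical.

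The proteins of this pair resemble the MS4A family, to which the B cell antigen CD20 belongs. They sit mostly in membranes inside the cell, in the Golgi and late endosomes, and have been described as cation channels of those compartments. In the immune system they are known from dendritic cells, where they have been tied to the handling of MHC class II molecules.

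The 2 genes point away from each other, Tmem176b on the minus strand and Tmem176a on the plus strand, and the stretches before their starts are shown because they overlap. RefSeq on GRCm38.p6 lists 2 starts for Tmem176a and 3 for Tmem176b, which lie 109 to 668 bases apart between the genes. The first listed start of each lies 346 bases from the other. The 250 bases before these starts are printed 5′ to 3′ on each gene's own strand, and capitals mark the 155 bases that both stretches contain, read in opposite directions. The counts were made on another build (mm9), so these positions locate the printed stretches only.
Tmem176a, chr6:48841233-48841482, plus strand: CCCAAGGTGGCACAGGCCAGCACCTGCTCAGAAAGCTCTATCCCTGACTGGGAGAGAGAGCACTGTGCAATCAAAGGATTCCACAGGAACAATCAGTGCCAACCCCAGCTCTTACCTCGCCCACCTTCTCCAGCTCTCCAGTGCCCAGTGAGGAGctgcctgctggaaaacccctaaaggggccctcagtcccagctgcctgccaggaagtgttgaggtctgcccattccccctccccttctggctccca
Tmem176b, chr6:48841138-48841387, minus strand: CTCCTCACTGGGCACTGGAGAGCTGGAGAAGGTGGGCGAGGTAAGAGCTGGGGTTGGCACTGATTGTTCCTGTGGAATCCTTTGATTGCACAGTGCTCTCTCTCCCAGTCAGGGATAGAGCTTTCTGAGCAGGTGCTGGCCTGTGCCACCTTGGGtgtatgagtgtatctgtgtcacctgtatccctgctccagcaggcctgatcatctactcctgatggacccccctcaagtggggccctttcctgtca
The stretch before Tmem176a holds 59.6% G and C and that before Tmem176b 56.4%, each with 1 CG dinucleotide.

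Both stretches were searched on both strands for 10 short motifs. The core promoter motifs were GGGCGG, bound by SP1, then the box written CCAAT, which NF-Y recognises, and TATAAA, where the general transcription machinery can assemble. For blood cell factors the letters were AGGAAGT for the ETS family, AGATAA for the zinc finger factors led by Gata2, TGTGGT for the RUNX family and TTGCNNAA for C/EBP proteins. The last were TGANTCA for the AP-1 dimers of Fos and Jun, AGGTCA for nuclear receptors and CACGTG for E-box proteins such as Myc. There was 1 match in all, AGGAAGT on the same strand 46 bases before the start of Tmem176a and outside the shared bases, so no matches overlap. Of 32851 stretches of the same length before RefSeq starts, 7.69% hold AGGAAGT. The other 9 motifs occur in 6.02% (CACGTG) to 33.8% (CCAAT) of them.

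Tmem176a was higher in every old library than in every young one. Its level was 1143, 875 and 1308 CPM (counts relative to the library total after TMM scaling) in old 1, old 2 and old 3. It was 286, 391, 329 and 286 CPM in young 1, young 2, young 3 and young 4. The lowest old library, old 2, was 2.24 times the highest young library, young 2. The old mean of 1109 ± 219 CPM (SD, n = 3) was 3.43 times the young mean of 323 ± 49.7 CPM (SD, n = 4).

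Tmem176b followed the same order of groups at a smaller ratio. It stood at 2423, 1720 and 2132 CPM in old 1, old 2 and old 3, and at 591, 1017, 653 and 706 CPM in young 1 to young 4. Old 2 was again the lowest old library and young 2 the highest young one, and they differed by 1.69 times. The means were 2092 ± 353 CPM (SD, n = 3) and 742 ± 189 CPM (SD, n = 4), 2.82 times as high in old. In bulk RNA, a larger part of cells that express a gene and more of its RNA per cell cannot be told apart.

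**Figure D1:**
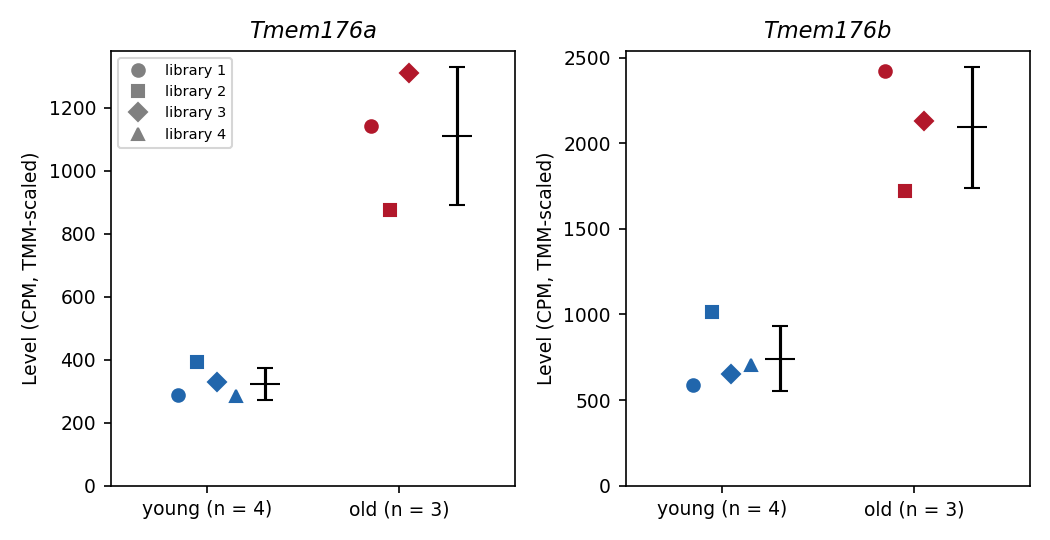
Levels of Tmem176a and Tmem176b in CPM (vertical axes from 0) by group; each point is a library, with its number as the symbol, and the bars give the mean and SD. All 3 old libraries (875 to 1308 CPM for Tmem176a and 1720 to 2423 CPM for Tmem176b) lie above all 4 young libraries.

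In the edgeR quasi-likelihood fit over all genes, the log2 fold change of old over young was 1.78 ± 0.22 (SE) for Tmem176a and 1.50 ± 0.24 for Tmem176b. Both were among the genes past the threshold (adjusted p under 0.05), 2 of 2 members. Over all 11506 tested genes 29 passed (0.252%), 27 of them higher in old (0.235%) and 2 lower (0.0174%). Since the pair was chosen on this contrast, nothing is read from that count. Groups that do not overlap, with old higher, occurred in 7.55% of the tested genes. Ranked from the highest log2 fold change, Tmem176a was at place 599 and Tmem176b at place 806, and the median of all tested genes was -0.03. Among the 356 genes that reached a mean of 500 CPM in either group, they ranked 14 and 19.

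Young 1 and young 2 stood apart from the other libraries on the first and the second principal component. The log2 fold change without young 1 was 1.72 for Tmem176a and 1.40 for Tmem176b. It was 1.88 and 1.69 without young 2, and 1.85 and 1.62 without both. Of the 7 fits without 1 library, Tmem176a passed the threshold in 2 (without old 2 and without young 2) and Tmem176b in 1 (without young 2). Neither passed without young 1 and young 2 together.

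Both genes took a measurable part of each library. Tmem176b took 0.172% to 0.228% of all counts of a library in old and 0.0607% to 0.0968% in young HSCs. Tmem176a took 0.0873% to 0.124% and 0.0294% to 0.0373%. Per kilobase of annotated exon, Tmem176b ranked 29, 33 and 30 among 10980 genes in the old libraries and between 93 and 174 in the young. On the same scale Tmem176a ranked 118 to 217 in old and 687 to 979 in young libraries.

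Per kilobase, Tmem176b was the higher of the 2 genes in every library. Per kilobase, old HSCs held 882 ± 149 CPM of Tmem176b and 291 ± 57.4 CPM of Tmem176a (SD, n = 3). Young HSCs held 313 ± 79.8 CPM and 84.8 ± 13.03 CPM (SD, n = 4). The ratio of the 2 genes per kilobase ran from 2.62 in old 3 to 4.18 in young 2. Exon lengths were 3810 bases for Tmem176a and 2371 bases for Tmem176b, from all transcripts of a GRCm38 annotation (GENCODE M21). Both include transcripts with a retained intron, which lowers the values per kilobase. The size of the ratio and the ranks per kilobase depend on these annotated lengths. By counts alone, Tmem176b was also the higher of the 2 genes in every library.

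The share of Tmem176a in the counts of the pair overlapped between the groups. Tmem176a made up 32.05% (Wilson 95% interval 31.8 to 32.3) of the counts of the pair in old 1, 33.7% (33.4 to 34.04) in old 2 and 38.03% (37.7 to 38.3) in old 3. It made up 32.7% (32.004 to 33.3) in young 1, 27.8% (27.3 to 28.3) in young 2, 33.5% (32.9 to 34.1) in young 3 and 28.8% (28.3 to 29.4) in young 4. Young 1 and young 3 exceed old 1. The means were 34.6 ± 3.08% (SD, n = 3) in old and 30.7 ± 2.81% (SD, n = 4) in young, 3.91 percentage points apart. That gap was 2.19 points without old 3 and 2.19 to 5.18 points over the fits without 1 library. The intervals cover counting error only. Libraries of a group differ by more than these intervals, except young 1 and young 3, whose intervals overlap. Those of young 1 and old 1 overlap too.

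**Figure D2:**
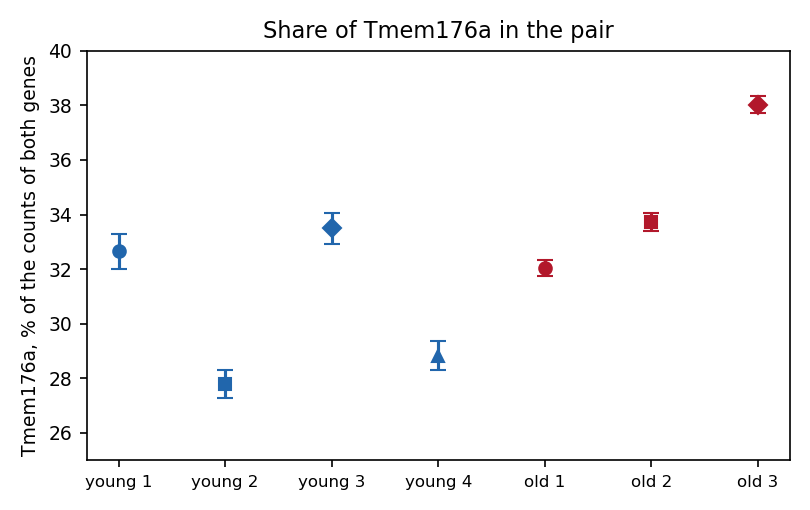
Counts of Tmem176a as a percent of the counts of both genes in each library (the axis runs from 25% to 40%); bars are Wilson 95% intervals for counting error. Young 2 and young 4 lie lowest (27.8% and 28.8%), old 3 highest (38.03%), and the other 4 libraries lie between 32.05% and 33.7%.

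The 2 genes went up and down together over the libraries. Pearson's r of log2 CPM over the 7 libraries was 0.978 and Spearman's rho 0.857. The old and young libraries form separate clusters for both genes, so this value holds mainly the gap between the groups. It was 0.960 without old 1 and old 3, the libraries farthest from the median of Tmem176a. This leaves old 2 and the 4 young libraries, so that value still holds the gap between the groups. After subtraction of the group means, r was 0.781. It was 0.755 over the 3 old and 0.862 over the 4 young libraries, too few for a test in either. The libraries share the scaling and the amplification of their cDNA, and reads from overlapping ends of the genes could enter either count.

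Those deviations had the same sign in 6 of 7 libraries. Young 2 lay above its group for both genes, by 0.29 (Tmem176a) and 0.49 (Tmem176b) on the log2 scale, and old 2 below its group for both, by -0.32 and -0.27. Young 3 was the exception, at 0.04 for Tmem176a and -0.15 for Tmem176b.

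**Figure D3:**
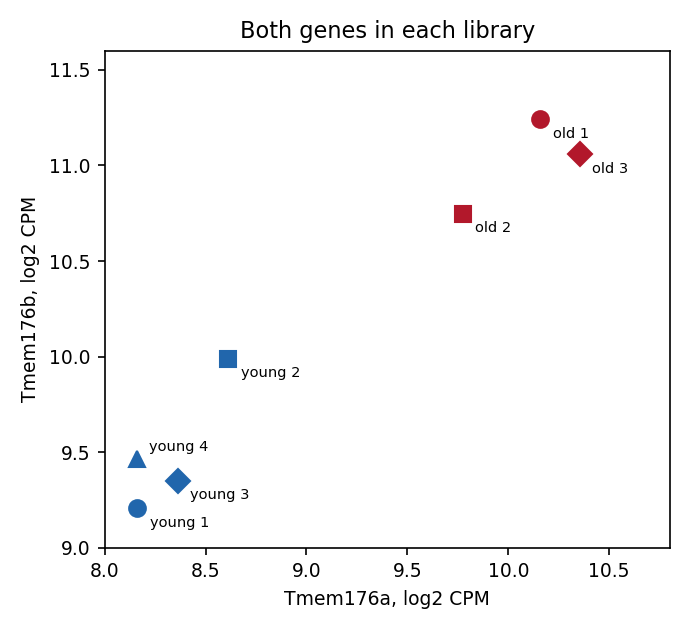
log2 CPM of Tmem176b against that of Tmem176a, with 1 point per library (red old, blue young). The old libraries lie at the upper right and the young at the lower left, with young 2 the highest of the young for both genes and old 2 the lowest of the old.

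Each gene was close to the top of the other's list of partners over the 7 libraries, but not at its head. Among 11505 other tested genes, Tmem176b ranked 18 by its r with Tmem176a, and Tmem176a ranked 8 by its r with Tmem176b. With group means subtracted the ranks were 278 and 573. Of 6968 pairs of neighbouring protein-coding genes with both tested, 4 (0.0574%) had an r at least as high as this pair, which is itself among them, and the median r was 0.02. With group means subtracted, 379 of these pairs (5.44%) had an r at least as high. Among 856 pairs that point away from each other and overlap or lie within 1000 bases, this pair alone reached its r, and 44 (5.14%) reached it with group means subtracted. The pair was chosen with its r over the libraries known, so nothing is read from these ranks and shares.

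Tested genes whose mean reached 10 CPM numbered 8604 beside the pair, and the 5 whose log2 CPM was most like the mean of the pair were Hspb6, Gpr183, Xdh, Ubl7 and Nupr1, with r of 0.990, 0.989, 0.984, 0.983 and 0.981 over the 7 libraries. All 5 were higher in each old than in each young library, as were 7.55% of the tested genes. Genes picked for likeness to a pair with separate groups tend to share that separation, so nothing is read from it. Hspb6, a small heat shock protein, had a mean of 49.3 ± 13.6 CPM in old against 0.137 ± 0.274 CPM in young libraries. For Ubl7, a protein with a ubiquitin-like domain, the means were 766 ± 72.7 and 430.5 ± 69.8 CPM. Nupr1, a stress-induced nuclear protein, had an r after subtraction of group means of 0.417 with Tmem176a and 0.873 with Tmem176b. The 3 genes least like the pair were Ppm1g, a protein phosphatase, Ruvbl2, an ATPase of chromatin remodelling complexes, and Slc20a1, a phosphate transporter, with r of -0.993, -0.982 and -0.980. Ppm1g stood at 97.03 ± 3.72 CPM in old against 152 ± 13.6 CPM in young libraries.

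On the side of Tmem176b lies a cluster of Gimap genes, which encode GTPases of lymphocytes and other blood cells. Of the 10 annotated genes on each side, 10 of the 20 were in the table and 6 were tested, all of them Gimap genes. None passed the threshold in edgeR. The log2 fold change was positive in all 6, against 48.5% of all tested genes. Its median was 1.03 against -0.03 over all tested genes. Gimap6 stood at 1092, 1119 and 1279 CPM in old 1 to old 3 and at 456, 641, 585 and 848 CPM in young 1 to young 4. Its groups do not overlap (log2 fold change 0.88 ± 0.23, adjusted p = 0.193, edgeR), and DESeq2, which called 3.81% of the genes with an adjusted p, called it higher (adjusted p = 0.00577).

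Gimap5, which supports the survival of lymphocytes and HSCs, had means of 154 ± 55.7 and 67.8 ± 34.4 CPM in old and young libraries (adjusted p = 0.417, edgeR). Its old range (108 to 216 CPM) overlaps the young (27.3 to 111 CPM). Gimap1 averaged 469 ± 66.7 and 324 ± 72.3 CPM and also overlapped (adjusted p = 0.498, edgeR). Gimap3 and Gimap5 are closely similar in sequence, so reads could have been lost or moved between them. On the other side, Aoc1, a diamine oxidase, had no count in any of the 7 libraries, nor had 1600015I10Rik and Doxl2. The genes nearest the pair were otherwise predicted genes that were not matched to the table.

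**Figure D4:**
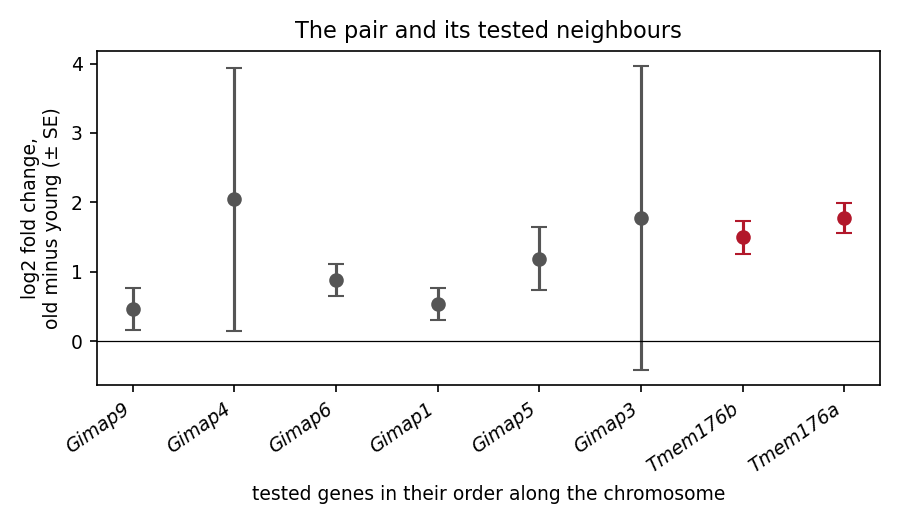
log2 fold change of old over young (points) with its SE (bars) for the 6 tested Gimap neighbours (grey) and the pair (red), in their order along the chromosome. All 8 points lie above 0, from 0.46 for Gimap9 to 2.04 for Gimap4; Gimap4 and Gimap3, each with no count in 2 young libraries, have the longest bars.

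The MS4A family, to which the pair is related, had few counts. Of 18 members, 16 were in the table, 11 had no count in any library and 4 were tested. None of the 4 passed, and the log2 fold change was positive in 1, with a median of -0.56. Ms4a6b ranged from 13.1 to 77.95 CPM over the old and from 36.5 to 114 CPM over the young libraries, and its groups overlap. Ms4a1, which encodes CD20, had no count. By counting error alone, 0 counts in a library allow 0.0929 to 0.137 CPM, the worth of 3 counts.

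Other ion channels and exchangers of endosomes, lysosomes and the Golgi held no gene past the threshold. Of 26 listed genes 19 were tested, 10 with a positive and 9 with a negative log2 fold change, and the median was 0.14. Mcoln1, the lysosomal cation channel mucolipin 1, stood at 90.1, 130 and 171 CPM in old 1 to old 3 and at 12.5, 68.4, 79.5 and 52.3 CPM in young 1 to young 4. Those groups do not overlap (log2 fold change 1.29 ± 0.55, adjusted p = 0.502, edgeR). Trpm7, a channel fused to a kinase, was lower in each old than in each young library, with means of 61.3 ± 5.998 CPM and 107 ± 23.2 CPM (adjusted p = 0.396, edgeR), a pattern that 5.18% of the tested genes showed. Tmem175, the lysosomal potassium and proton channel, had means of 208 ± 86.8 and 178 ± 82.9 CPM, with overlapping groups.

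For MHC class II presentation, a process to which the pair has been linked, 7 of the 12 tested genes were highest in old 1, Cd74, H2-Aa, H2-Ab1 and H2-DMa among them. None of the 12 passed in edgeR, and the log2 fold change was above 0 in 10, with a median of 0.95. Over all tested genes it was above 0 in 48.5%. Cd74, the invariant chain that escorts class II molecules, stood at 1477 CPM in old 1 against 147 and 264 CPM in old 2 and old 3, and the young libraries held 24.4 to 491 CPM. The summed level of the 14 listed genes was 3542 CPM in old 1, 630 to 1263 CPM in old 2 and old 3 and 715 to 1409 CPM in the young libraries. Ciita was highest in old 2, with 0.415, 2.35 and 0.999 CPM in old 1 to old 3 and 0 CPM in every young library (adjusted p = 0.276, edgeR). H2-DMb1 was highest in old 3, with 219, 136 and 229 CPM in old 1 to old 3. Its young libraries held 75.8 to 144 CPM, so its groups overlap (adjusted p = 0.444, edgeR). H2-Eb1, a class II beta chain, was called higher by DESeq2 (adjusted p = 0.0232) and not by edgeR (adjusted p = 0.314), with 157 CPM in old 1 and 5.01 CPM in old 2. Tmem176b was highest in old 1 as well, whereas Tmem176a was highest in old 3.

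The sorted cells carried the markers of HSCs. All 16 HSC markers were tested, and the log2 fold change was above 0 in 10 (median 0.44), against 48.5% of all tested genes. Procr, the endothelial protein C receptor, was the only one to pass in edgeR, with means of 332 ± 47.9 and 49.7 ± 11.7 CPM (adjusted p = 0.00643). DESeq2 called 4, Procr, Ly6a, Mllt3 and Pdzk1ip1, where it called 3.81% of all genes with an adjusted p. In 6 of the 16 every old library lay above every young one, a pattern that 7.55% of the tested genes showed. The summed level of the 16 markers was 4306 to 4926 CPM in old and 2303 to 3385 CPM in young libraries. This sum, like the pair, was thus higher in every old library. Most of its gap came from Procr, Pdzk1ip1 (means of 892 and 226 CPM), Ly6a (538 and 167 CPM) and Mllt3 (419 and 145 CPM). The log2 fold change was below 0 for Kit, Ctnnal1, Tek, Meis1, Hlf and Gata2 (-0.52 to -0.17), so the markers did not rise as a class. The part of this sum in the result was not tested.

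Several defining markers of the cells in which the pair is known were at 0, and other listed markers were not. Of 16 dendritic cell markers, Itgax, Batf3, Cd209a, Ccr7, Siglech, Clec10a, Cd8a and Irf4 had no count in any library. The 5 tested held none past the threshold (4 positive, median 0.38), and the summed level was 169 to 213 CPM in old and 119 to 213 CPM in young libraries. Clec9a, a receptor of cross-presenting dendritic cells, stood at 7.55, 9.63 and 1.81 CPM in the old and at 0 to 1.01 CPM in the young libraries (adjusted p = 0.624, edgeR). Bst2 was also higher in each old library, at 79.03 to 98.3 CPM against 52.4 to 73.4 CPM in young (adjusted p = 0.675, edgeR). Such a separation, with old higher, occurred in 2 of the 5 tested members and in 7.55% of all tested genes. Tcf4 ranged from 40.9 to 83.05 CPM in old and from 20.8 to 86.3 CPM in young libraries. Dpp4 had a log2 fold change of -0.38, with overlapping groups. Irf8, which was not tested, stood at 0 to 0.186 CPM in old and 0 to 33.7 CPM in young libraries. Of 18 monocyte and macrophage markers, Csf1r, Emr1, Ccr2 and Cx3cr1 had no count. Of the 6 tested, the log2 fold change was above 0 in 2 (median -2.09), and the summed level was 898 to 1451 CPM in old and 749 to 1391 CPM in young libraries, mostly lysozyme (Lyz2). Cd14 stood at 8.61 to 11.3 CPM in old and 0 to 7.58 CPM in young libraries (adjusted p = 0.935, edgeR). Cd68 stood at 7.15 to 20.02 CPM in old and 16.2 to 64.3 CPM in young libraries (adjusted p = 0.615, edgeR). C1qa, a complement subunit, had no count in old and 0 to 12.6 CPM in young libraries. DESeq2 called it lower (adjusted p = 0.0441) where edgeR did not (adjusted p = 0.353).

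Of 15 markers of granulocytes and red cells 5 were tested, with a log2 fold change above 0 in 1 and below 0 in 4 (median -1.05). The 1 above 0 was Prtn3, the granule protease proteinase 3, which rose in old HSCs. Its means were 645 ± 116 and 151 ± 43.8 CPM, a log2 fold change of 2.10 ± 0.27 (adjusted p = 0.0242, edgeR), and it passed in 2 of the 7 fits without 1 library. The summed level of the 15 listed genes was 557 to 837 CPM in old and 188 to 341 CPM in young libraries, most of it Prtn3, and the part of this sum in the result for the pair was not tested. Mpo and Elane, which accompany Prtn3 in granulocyte progenitors, were each at 0 in 5 of the 7 libraries, and Ctsg, Ltf and the 3 globin genes were at 0 in all. Of B cell and plasma cell markers only Cd79b was tested (151 ± 67.2 CPM in old, 144 ± 27.9 CPM in young), and the list summed to 78.4 to 199.7 CPM in old and 122 to 187 CPM in young libraries. Of 12 endothelial and stromal markers 3 were tested and none passed. They summed to 102 to 156 CPM in old and 58.3 to 141 CPM in young libraries, with the sialomucin Emcn at 96.6 ± 18.6 and 58.8 ± 8.59 CPM (adjusted p = 0.524, edgeR).

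**Figure D5:**
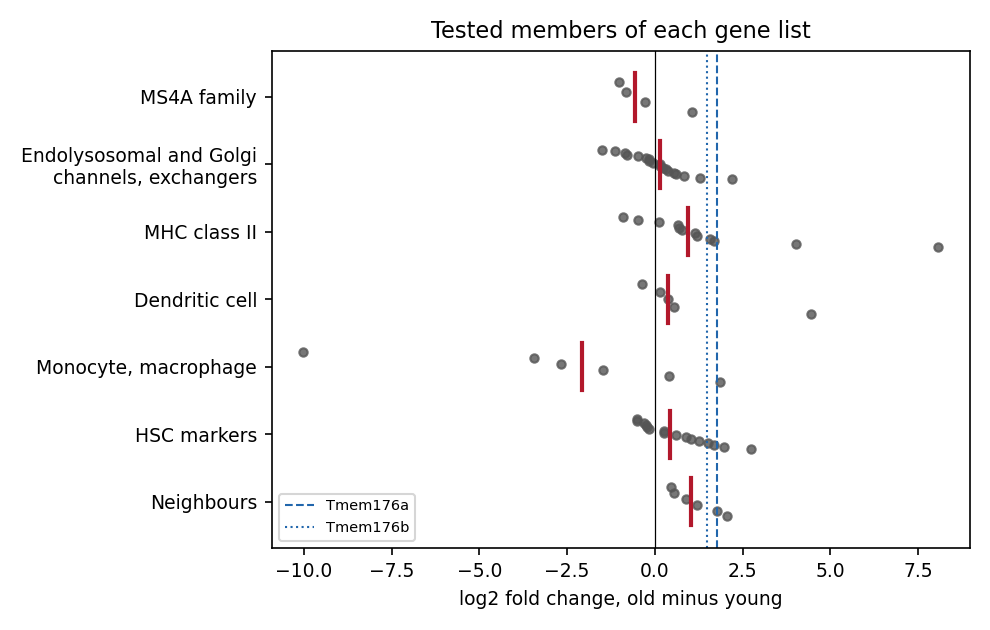
log2 fold change of old over young for the tested members of 7 gene lists (grey points) with each list's median (red bars); dashed and dotted lines mark Tmem176a and Tmem176b. The medians run from -2.09 (monocyte and macrophage markers) to 1.03 (neighbours), all below both lines; the points for C1qa and Ciita, far to the left and right, come from genes with no count in one group.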

How the data were processed

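Per the labels' protocols, cDNA was made from polyadenylated RNA with Smart-seq+ and libraries with Nextera XT, a kit without strand marking. Per the submitters' processing notes, Trimmomatic, FastQC, STAR and featureCounts were used with mm9; versions, annotation and strand options were not given in the sources used here. Raw read counts per gene symbol were deposited by the authors, with 22203806 to 32401925 counts per library. In GENCODE M21 (GRCm38) the 2 genes overlap by 578 bases on opposite strands, with 81 exonic bases in common (2.13% of Tmem176a, 3.42% of Tmem176b). Reads there cannot be told apart. No molecular identifiers are stated, so counts include amplification copies.

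Old was compared with young in edgeR 4.0.16 (R 4.3.3) with the quasi-likelihood F test, 2-sided, after filterByExpr (minimum count 10, minimum total 15; 11506 genes kept) and TMM scaling, with Benjamini-Hochberg adjustment over all tested genes. SE was taken from the log2 fold change and F (size of the change over the root of F). Correlations used log2 CPM with a prior count of 2. DESeq2 1.42.0 and limma 3.58.1 (voom) were alternatives, with other scalings and filters, a replicate block and fits without 1 library. The fit was tested on simulated counts. The members and gene lists were chosen with earlier results of these data known. Besides the pair, named genes are the 5 most and 3 least alike by r, called list members and from each list up to 3 with the lowest p. Others (Cd74, Cd14, Tmem175, Ms4a1, Mpo, Elane, Ly6a, Kit, Ctnnal1, Tek, Meis1, Hlf, Gata2, Dpp4, Irf8, H2-Aa, H2-Ab1, H2-DMa, Gimap4, Gimap9 and members with no count) were named after their values were seen. The comparison with all neighbouring pairs was also added then. 1 list of lymphoid cell markers is not reported here.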

Additional observations from a re-analysis of the deposited data

Results flagged for a closer look

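A library far from the others was found in 5 of 41 sets of 4 young libraries. Chance flags about 1 in 20 such sets, a rate that does not apply to genes chosen for their likeness to the pair, which is itself highest in young 2 among the young libraries. Young 2 stood apart for 3 of the genes most like the pair: Hspb6 (0.548 CPM, with 0 in the other young libraries), Gpr183 (1.78 CPM against 0 to 0.0348 CPM) and Ubl7 (535 CPM against 389 to 404 CPM). Young 4 stood apart for Clec9a (1.01 CPM against 0 to 0.131 CPM) and Kdr (7.94 CPM against 0 to 0.131 CPM). For Hspb6, Gpr183, Clec9a and Kdr the other young libraries were at or near 0. A small value is then flagged, and the rate does not apply to these genes either. Neither Tmem176a nor Tmem176b, nor their balance, met this criterion.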

How the results depend on the processing

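Tmem176a and Tmem176b kept a positive log2 fold change in all 18 fits, with 1.64 to 1.91 and 1.38 to 1.69 over the 7 fits without 1 library and 1.69 to 1.78 and 1.41 to 1.51 over the 8 other planned settings. They passed the threshold in 2 and 1 of those 7 fits, and in 7 and 5 of those 8. The fit on libraries 1 to 3 without the replicate block is the same as the fit without young 4. The 18 fits thus count it more than once. The 29 genes called became 431 with DESeq2, 50 with limma-voom, 16 with scaling by library size alone (median log2 fold change of all genes -0.12), 2 to 18 without 1 library, 7 without young 1 and young 2, and 11 with libraries 1 to 3 only. With the replicate block on libraries 1 to 3 it was 0, and neither member passed; same-numbered libraries did not deviate together (correlations -0.07 to 0.03), 0 of 3 old libraries correlated best with their own number, and the numbers share no stated source. Of the gene lists, 2 members were called in edgeR, which called 0.252% of all tested genes. DESeq2 called 8, where it called 3.81% of all genes with an adjusted p. Fits without 1 library called 0 to 2, the fit without young 1 and young 2 called 0, libraries 1 to 3 gave 1, and the replicate block gave 0. The lists were chosen with earlier results known, so nothing is read from these counts. The correlation of the pair was 0.857 as Spearman's rho, 0.781 with group means subtracted and 0.975 to 0.987 without 1 library. Some of these fits hold fewer libraries. The causes of these changes were not tested.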
